A study of Mus musculus with 5 samples.

Results

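The genes described here are the basic helix-loop-helix (bHLH) lineage genes of a pooled CRISPR guide library, Neurog2 among them. Members were taken by gene name, through a fixed set of name patterns and symbols. The patterns use no measured value, but they were chosen with earlier results of these data known. The rule found 50 of the 1682 genes in the library and 500 of the 16820 guides to genes. One member, Hesx1, matched the HES pattern but codes for a homeobox protein and not for a bHLH factor. All 50 symbols matched RefSeq directly, and gene coordinates are those of RefSeq on GRCm38.p6 (mm10).

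The screen was run in mouse embryonic stem (ES) cells labelled Ainv15(iNgn2 Tubb3::GFP), with no treatment listed and Zeocin used to keep transduced cells. The abundance of a guide stands for the cells that carry it. The groups are transduced cells at day 5, day 8 and day 12 with 1 library each, and the plasmid pool before transduction with 2 libraries. All cell libraries share the genotype and the Zeocin selection. Days are those of the sample titles, counted from transduction, whereas the protocol places the first time point after selection, so the true interval from the plasmid pool may be longer. iNgn2 is the usual short name of a doxycycline-inducible Neurog2 transgene, so the parental line may hold a copy of a member beside the endogenous gene. Whether any guide also matches that transgene was not tested. Libraries held 1008492 to 3541896 reads, and the middle guide of a member held 178 (plasmid library 1), 70 (plasmid library 2), 63 (day 5), 67 (day 8) and 62 reads (day 12). With 1 library per time point no comparison of a day with the plasmid pool has a replicate check, and the labels do not say whether the days are serial samples of 1 culture. Counting intervals below cover counting error only, since PCR reads are not separate molecules or cells.

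bHLH proteins bind DNA as dimers at E-box sites. Lineage factors such as the proneural, myogenic and mesodermal proteins pair with the broadly expressed E proteins, while ID proteins lack the basic region and hold E proteins off DNA. HES and HEY proteins are mostly repressors, and several of them act downstream of Notch. In ES cells Id genes are known as BMP targets that favour self-renewal, while most lineage bHLH genes are known for roles after pluripotency is left.

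The guides of 4 members carry the points made below and are shown first. Neurog2 gives the label of the group and had the widest spread between its guides. Tcf15 had the highest gene median, Tcf3 the lowest, and Tcf12 the highest among the E proteins. Sequences are the deposited guides, 5′ to 3′, with the 10 bases next to the PAM in capitals, and guides are numbered in library order among those kept.
Neurog2 guide 1: tgagactctgGAGTTGAAGG
Neurog2 guide 2: catcggggtcAGGGTCGCCG
Neurog2 guide 3: caccgagactCTGCGCCTGG
Neurog2 guide 4: caagaagaccCGCAGGCTCA
Neurog2 guide 5: ggttgttggcCTTGAGCCTG
Neurog2 guide 6: cttggcatccTCGGGGAAGG
Neurog2 guide 7: cttcgtgagcTTGGCATCCT
Tcf15 guide 1: cgggcagccgTGTTTCCGCG
Tcf15 guide 2: ccgtgttcacGCTCTGCGTG
Tcf15 guide 3: aggggtgtagCCCCGCTCCG
Tcf15 guide 4: gggcagccgtCGTGACCTGG
Tcf15 guide 5: catcgccgagGCCCTCGGAG
Tcf15 guide 6: gtccagctacATCGCCCACC
Tcf15 guide 7: tagccccgctCCGAGGGCCT
Tcf15 guide 8: tctcgatcttAGACAGCTTT
Tcf15 guide 9: cggtggggatGAGCGTGCGC
Tcf3 guide 1: cgggagggcaGGCACAACAG
Tcf3 guide 2: ggcgtatggcCAATAACGCT
Tcf3 guide 3: tggccaataaCGCTCGGGAG
Tcf3 guide 4: catgcggcccAGCTCCCGGA
Tcf3 guide 5: tatccgacttGAGGTGCAGC
Tcf3 guide 6: tctcgctgctGAGGTGCAGC
Tcf3 guide 7: catgcggccgAGCTCCTTAA
Tcf12 guide 1: gctcctggcaACGTGTTGGG
Tcf12 guide 2: ttcatgtcatCTGATGAAGG
Tcf12 guide 3: ctgatgaaggAGGTTCATGA
Tcf12 guide 4: ttacagatgaCCCATAGGGT
Tcf12 guide 5: ttggtagactCACTAAGCCC
Tcf12 guide 6: tcacttgctgTTCTAGACTA
Tcf12 guide 7: cgttaatatcCCGCACGCGC
Tcf12 guide 8: ccagagagcgCCTGCGCGTG
Tcf12 guide 9: tctcattcttCATCAGGCCG
Tcf12 guide 10: tcaaatgaagCTGACACATT

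A guide was kept where both plasmid libraries held at least 30 reads of it, which left 430 guides of members, 6 to 10 per gene with a median of 9. A guide's change is the log2 ratio of its scaled abundance (CPM) plus 1 at a given day over the plasmid mean plus 1. A gene's score is the median over its guides, and the SD beside it is over those guides. Scaling used TMM factors over all kept guides, so zero stands for a guide that moved like most of the library. The difference between plasmid libraries 2 and 1, scored the same way, had an SD of 0.109 over the 50 members and ran from -0.19 to 0.23.

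No member had a gene median past 2-fold in either direction at any day, though single guides did pass it. At day 12 the 50 gene medians ran from -0.46 to 0.93 with a middle value of 0.23, while the 1632 other genes ran from -4.83 to 2.59 with a middle value of -0.0079. Medians of -1 or below were found for 0 of 50 members, against 15.8% of all 1682 genes. Medians of 1 or above were found for 0 of 50, against 1.19% of all genes. At day 5 the shares of all genes past these folds were 6.30% and 0.0595%, and at day 8 they were 12.1% and 0.178%, again with 0 of 50 members on either side. The genes with deep losses in this screen were all outside the member list.

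**Figure D1:**
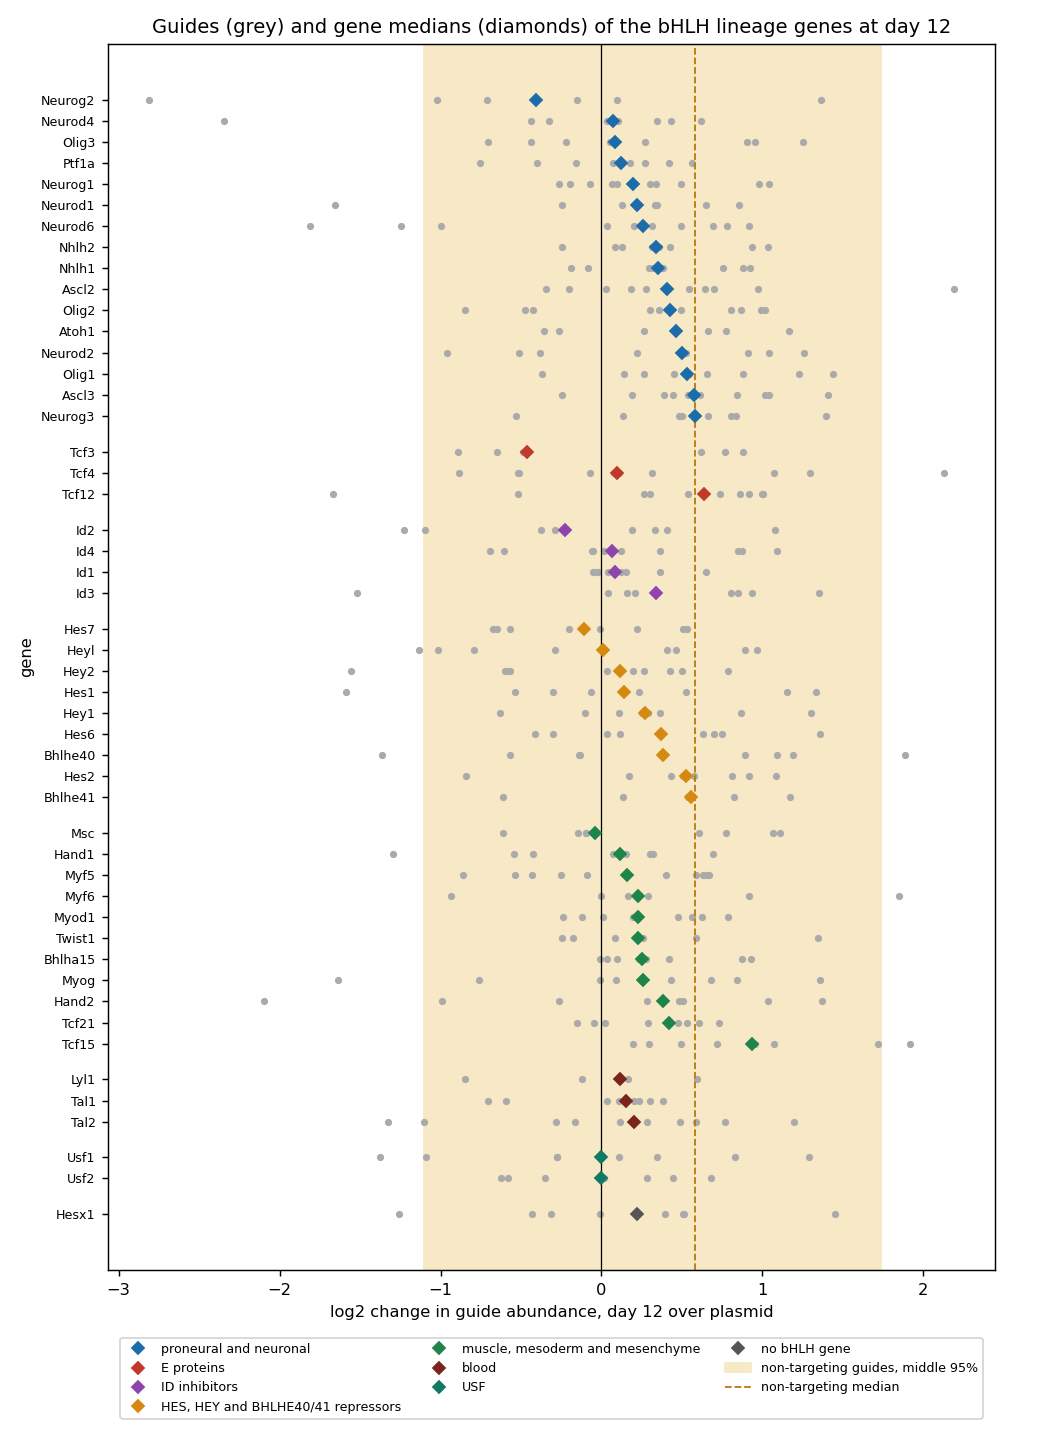
Log2 change from the plasmid pool to day 12 for each guide (grey points) and each gene median (diamonds, coloured by role) of the members shown. The shaded band holds the middle 95% of non-targeting guides, from -1.10 to 1.74, and the dashed line their median of 0.58. All gene medians shown lie inside the band, and 2 of them, Tcf12 and Tcf15, lie above the dashed line.

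The single guides of members show the same narrow spread. At day 12, 23 of 430 guides of members (5.35%) were at -1 or below, against 22.0% of 14013 guides to other genes and 3.36% of 893 non-targeting guides. Guides at 1 or above made up 10.2% of the guides of members, 7.31% of those to other genes and 22.3% of the non-targeting ones. The SD over guides was 0.70 for members, 1.24 for other genes and 0.70 for non-targeting guides. Guides at 0 reads at day 12 were rare in both sets, with 0 of 430 guides of members and 93 of 14013 guides to other genes. The 23 low guides fell on 17 members, with at most 2 in 1 gene.

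The non-targeting guides, which have no gene as their target, ended above zero on this scale. Their medians at days 5, 8 and 12 were 0.41, 0.54 and 0.58. Above these lay 5, 3 and 2 of the 50 members, or 10.0%, 6.0% and 4.0%, against 4.34%, 3.98% and 6.24% of all genes. Centred on non-targeting guides, the middle member stood at -0.35 at day 12 and the middle gene of the library at -0.57, so the sign of the middle member depends on which guides are taken as zero. On that scale 1 member, Tcf3 at -1.04, passed -1, against 26.8% of all genes.

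Most of the 17 proneural and neuronal genes drive neural progenitors toward neurons or oligodendrocytes or pattern single neural and pancreatic lineages. Among all 17, 16 medians were above 0 at day 12, against 50.8% of all genes, and the middle one was 0.35. Centred on non-targeting guides the middle one was -0.23. Neurog2, a proneural factor sufficient to make neurons from ES cells when induced, was the exception at -0.41 (SD 1.27, 5 of 7 guides below 0; chromosome 3, 127632733 to 127635636), at percentile 27.3 of all genes. Its relatives stood higher. Neurog1 was at 0.20 (SD 0.45, 10 guides) and Neurog3, known for pancreatic endocrine cells, at 0.58 (SD 0.56, 8 guides), the highest of the group. The NEUROD genes, which act later in neuronal differentiation, ran from 0.07 for Neurod4 to 0.50 for Neurod2, with Neurod1 at 0.22 and Neurod6 at 0.26. Ascl2, best known from intestinal stem cells and trophoblast, was at 0.41, and Ascl3 at 0.57. Olig1 (0.53) and Olig2 (0.43), oligodendrocyte lineage genes, stood above Olig3 (0.09), and Nhlh1 (0.35), Nhlh2 (0.34), Atoh1 (0.46) and Ptf1a (0.12) were also in the group.

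The guides of Neurog2 did not move together. Guide 2 had 122 and 51 reads in the plasmid libraries, then 25, 13 and 4 at days 5, 8 and 12, a change of -2.81, the lowest of all 430 guides of members. Guide 5 had 151 and 50 plasmid reads and then 75, 65 and 97, a change of 1.36. The other 5 guides ended between -1.02 and 0.10. In the trend test over days of single guides, guide 2 fell and guide 5 rose (edgeR quasi-likelihood adjusted p = 0.000792 and 0.00239), and the other 5 did not pass. Guides 6 and 7 share 11 bases of target and ended at 0.10 and -1.02. Summed over its 7 guides, Neurog2 had 318 and 337 scaled CPM in the plasmid libraries and 318, 272 and 308.5 at days 5, 8 and 12. The day 12 sum was 0.954 times the plasmid sum, with an exact 95% counting interval of 0.838 to 1.08 that holds 1. The median and the sum thus differ, and the summed trend of Neurog2 (-0.013 per day, edgeR quasi-likelihood adjusted p = 0.484) did not pass.

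The 3 E protein genes code for the shared dimer partners of the lineage factors, and their medians were spread over most of the range of the members. Tcf3, the E2A gene on chromosome 10 (80409541 to 80433976) and not Tcf7l1, had the lowest median of all members, -0.46 (SD 0.75, 7 guides). Its guides fell in 2 sets, with 4 between -0.89 and -0.46 and 3 between 0.62 and 0.88, so the median is the value of 1 guide at the edge of the lower set. The scaled sum of Tcf3 was 371 and 395 CPM in the plasmid libraries and 407, 417 and 458 at days 5, 8 and 12, which is above both plasmid values on each day. Guides 5 and 6 of Tcf3 are identical over their last 11 bases and ended at 0.77 and 0.88, while guides 4 and 7 are identical over their first 9 bases and ended at -0.89 and -0.49. Guides 2 and 3 overlap by 14 bases and ended at -0.46 and 0.62. Tcf12, the HEB gene on chromosome 9 (71844252 to 72111893), had a median of 0.63 (SD 0.85) with 8 of 10 guides above 0. Guides 3 and 7 went the other way, guide 3 to -0.52. Guide 7 had 338 and 98 plasmid reads and then 33, 22 and 24, a change of -1.67 that passed the trend test of single guides (edgeR quasi-likelihood adjusted p = 0.00039). Tcf4, on chromosome 18, stood at 0.10 (SD 0.94, 10 guides).

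**Figure D2:**
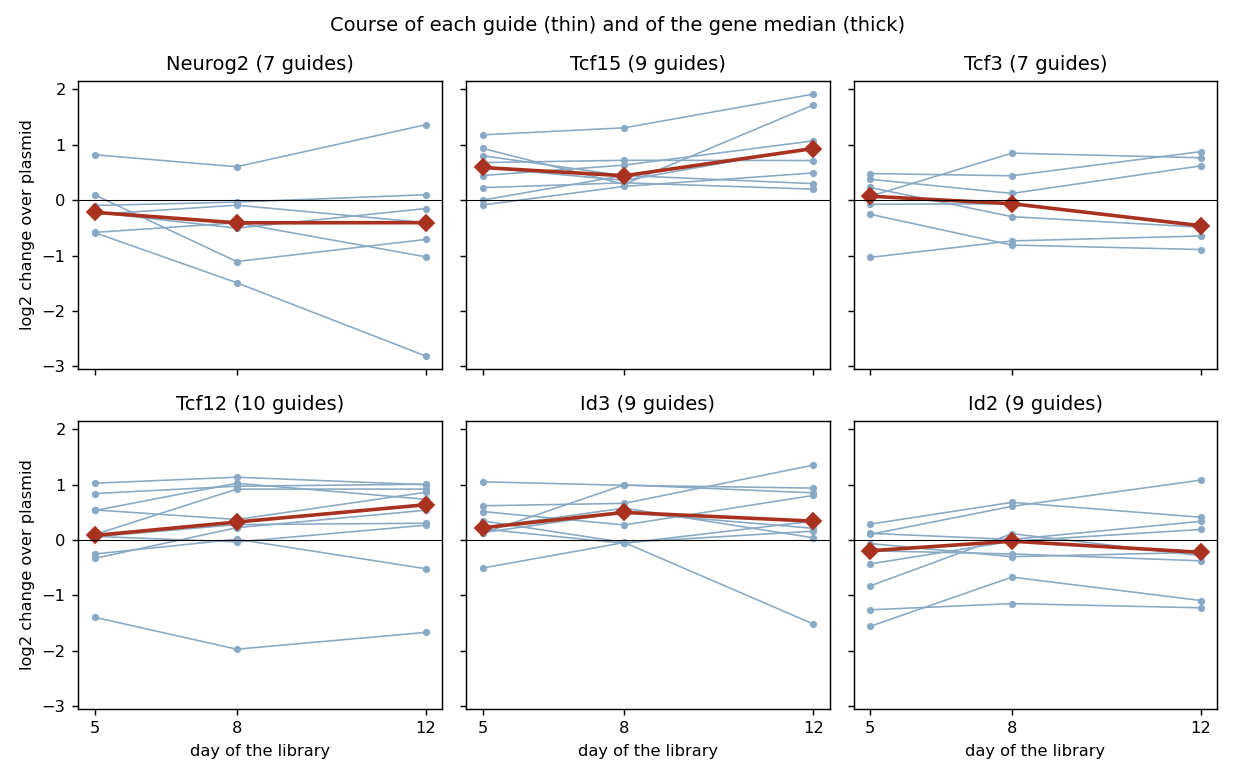
Log2 change over the plasmid pool at days 5, 8 and 12 for each guide (thin lines) and for the gene median (thick line) of Neurog2, Tcf15, Tcf3, Tcf12, Id3 and Id2. Guides of Neurog2 spread from -2.81 to 1.36 at day 12, guides of Tcf3 end in a set above 0 and a set below 0, and all 9 guides of Tcf15 end above 0.

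The ID genes, inhibitors of E proteins, ended close to the typical guide. Medians at day 12 were -0.22 for Id2 (SD 0.73, 9 guides), 0.07 for Id4 (SD 0.61, 10 guides), 0.08 for Id1 (SD 0.24, 8 guides) and 0.34 for Id3 (SD 0.82, 9 guides). Id1 had the narrowest spread of all 50 members. Its scaled sum was 653 and 726 CPM in the plasmid libraries and 677, 667 and 744 at days 5, 8 and 12, so only the day 12 value lay above both plasmid libraries. On the scale of all kept guides, described further on with the trend over days, Id3 (0.041 per day, edgeR quasi-likelihood adjusted p = 0.00326) and Id4 (0.034 per day, adjusted p = 0.0185) rose, while Id1 (0.0061 per day) and Id2 (-0.0045 per day) did not pass. After the GC correction described below neither Id3 nor Id4 passed (adjusted p = 0.172 and 0.0987), and on the scale of the non-targeting guides the slopes of both turned negative without passing, at -0.014 (adjusted p = 0.244) and -0.021 (adjusted p = 0.102). Within Id3, guide 2 and guide 8 overlap on opposite strands by 16 bases and ended far apart, at -1.52 and 0.85.
Id3 guide 2: ttgtgatctcCAAGGACAAG
Id3 guide 8: tccttggagaTCACAAGTTC
Guide 2 rested on few reads, 71 and 36 in the plasmid libraries and 17, 24 and 7 at days 5, 8 and 12, and did not pass the trend test of single guides (edgeR quasi-likelihood adjusted p = 0.15).

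The 9 HES, HEY and BHLHE40/41 repressor genes had a middle value of 0.27, with Hes7, an oscillator of somite segmentation, lowest at -0.11 (SD 0.50, 8 guides) and Bhlhe41, a repressor of the circadian clock, highest at 0.56 (SD 0.57, 7 guides). Hes1, the Notch target whose protein oscillates in ES cells and neural progenitors, was at 0.14 (SD 0.89, 9 guides). Guide 2 of Hes1 fell to -1.59 and guides 1 and 9 rose to 1.15 and 1.33, each past the trend test of single guides (edgeR quasi-likelihood adjusted p = 0.000737, 0.00104 and 0.000869). Hes2 (0.53), Hes6 (0.37), Bhlhe40 (0.38) and Hey1 (0.27) stood above Hey2 (0.11) and Heyl (0.0069).

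Of the 11 muscle, mesoderm and mesenchyme genes, 10 medians were above 0, against 50.8% of all genes, and Tcf15 was the highest of all members. The middle value of the group was 0.23. It was 0.082 after the GC correction, where Msc, Hand1, Myf5 and Myog were below 0, and -0.35 when centred on non-targeting guides. Tcf15 (chromosome 2, 152143056 to 152149097), a paraxial mesoderm factor also known from ES cells primed to leave the naive state, had a median of 0.93 (SD 0.59, 9 of 9 guides above 0), at percentile 98.6 of all genes. Its scaled sum was 508 and 535 CPM in the plasmid libraries and 757, 755 and 972 at days 5, 8 and 12, and all 3 cell libraries lay above both plasmid libraries. The day 12 sum was 1.89 times the plasmid sum, with an exact 95% counting interval of 1.75 to 2.04. Guides 1 and 8 led, with changes of 1.91 and 1.72, and guide 7 was the lowest at 0.20. The guides of Tcf15 are rich in G and C, with 13.8 such bases on average against 10.8 over all genes. After the GC correction its median was 0.44, and with centring on non-targeting guides as well it was -0.072. The myogenic genes Myf5, Myf6, Myod1 and Myog, which commit cells to skeletal muscle, were at 0.16, 0.23, 0.23 and 0.26. Hand2, a heart and limb gene, was at 0.38 (SD 1.13), with guide 1 at -2.09 against 1.37 for its highest guide, and Hand1 at 0.11. Twist1 (0.23), Bhlha15 (0.25), Tcf21 (0.42) and Msc (-0.04) were the rest of this group. Bhlha15 was placed here by the list of role groups, and its role in these lineages was not examined.

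The blood genes Lyl1, Tal1 and Tal2, known from haematopoiesis and leukaemia, had medians of 0.11, 0.15 and 0.20 at day 12. Usf1 and Usf2, which code for ubiquitous bHLH leucine-zipper activators and are not lineage restricted, ended at -0.0012 (SD 0.84, 9 guides) and -3.7e-05 (SD 0.48, 8 guides). The scaled sums of Usf2 were 552 and 605 CPM in the plasmid libraries and 475, 534 and 634 at days 5, 8 and 12, so day 5 and day 8 lay below both plasmid libraries and day 12 above both. Hesx1, the homeobox gene caught by the name pattern, was at 0.22 (SD 0.71, 10 guides).

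A trend over days was fitted to the reads of all 5 libraries with the quasi-likelihood test of edgeR, with the plasmid pool as day 0 and 3 residual degrees of freedom. Its error comes from the plasmid pair and from how far the days stray from a line, so its p-values speak for these 5 libraries alone. On reads summed per gene, 0 of 50 members fell and 33 rose at an adjusted p under 0.05, against 25.2% and 34.7% of all 1682 genes, while with TMM factors from non-targeting guides 19 members fell and 0 rose, against 64.4% and 1.13%. At an unadjusted p under 0.05 the counts were 0 and 34, against 27.0% and 37.2% of all genes. The Wald test of DESeq2 called 0 down and 34 up, against 26.5% and 38.2%. With the plasmid pool as day 0, a slope per day does not tell a step before day 5 from a gain that went on. The middle gene median of the members was 0.17 at day 5 and 0.23 at days 8 and 12. Summed reads of Olig2 were 1.48, 1.54 and 1.42 times the plasmid sum at days 5, 8 and 12. Those of Olig1 were 1.18, 1.45 and 1.61 times that sum. How many of the called members followed either course was not counted. The steepest rise was that of Tcf15, at 0.073 per day on the log2 scale (edgeR quasi-likelihood adjusted p = 0.000223), and Tcf12 rose by 0.052 per day (adjusted p = 0.00104). Neurog3 (0.05 per day, adjusted p = 0.00377), Bhlhe41 (0.046 per day, adjusted p = 0.000736), Msc (0.047 per day, adjusted p = 0.00378) and Tcf4 (0.039 per day, adjusted p = 0.0253) were also called. Msc had a median of -0.04 at day 12, so its summed reads and its middle guide differ in sign. Tcf4 had a median of 0.10 at day 12, with 3 of 10 guides at 1 or above and 4 below 0. Hesx1 rose by 0.025 per day (adjusted p = 0.013). Tcf3 (0.02 per day, adjusted p = 0.127), Usf1 (-0.005 per day), Usf2 (0.0051 per day), Hes7 (0.0013 per day), Lyl1 (-0.012 per day) and Tal2 (0.0076 per day) did not pass.

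The upward calls held for the scale of the typical guide and not for that of the non-targeting guides. Of the 33 members called up on the first scale, 4 (Hes1, Hesx1, Myf5 and Myod1) were called down on the other. On the scale of the non-targeting guides 64.4% of all genes were called down. The share of all genes that changed from up to down was not counted. Neurog2 fell on that scale, by 0.067 per day (edgeR quasi-likelihood adjusted p = 0.0189), and Tcf15 kept a slope of 0.019 per day that did not pass (adjusted p = 0.14). On single guides 111 of 430 member guides rose and 30 fell on the first scale, or 25.8% and 6.98%, against 16.1% and 24.0% of the 14443 guides to genes. Of the 893 non-targeting guides, 406 rose and 43 fell.

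**Figure D3:**
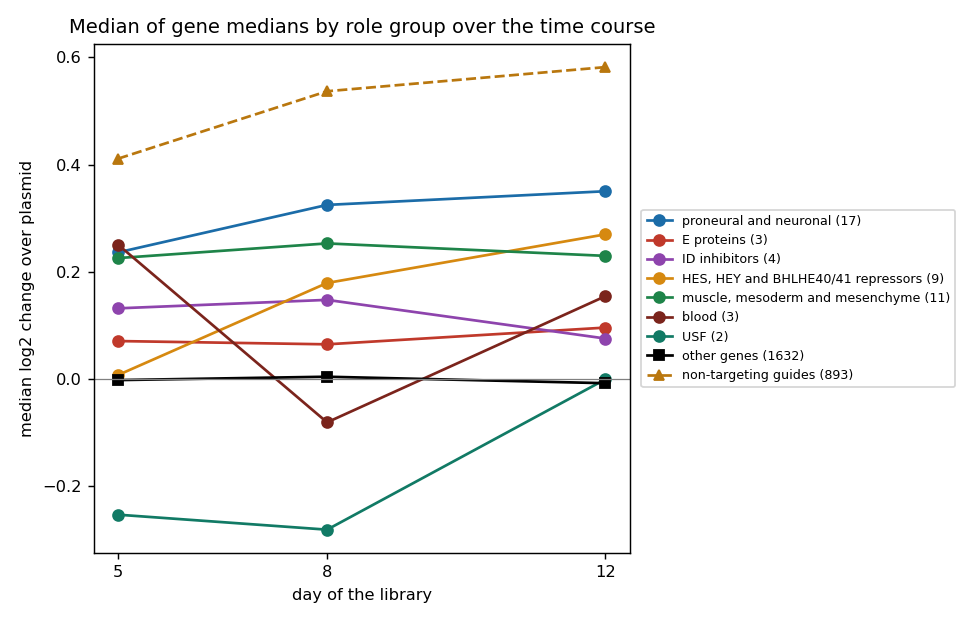
Median of gene medians (log2 change over the plasmid pool) at days 5, 8 and 12 for each role group, with the number of genes in brackets, beside the 1632 other genes and the median of 893 non-targeting guides. The non-targeting line runs highest, from 0.41 to 0.58, the other genes stay near 0, and the USF pair is lowest at days 5 and 8.

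The middle member moved little over the time course, with 0.17, 0.23 and 0.23 at days 5, 8 and 12, and 33 of 50 had a median above 0 on all 3 days, against 36.2% of all genes. Neurog2, Id2, Usf1 and Usf2 were the 4 members below 0 on all 3 days, against 35.0% of all genes. Neurog2 stood at -0.22, -0.41 and -0.41. Usf1 and Usf2 were at -0.19 and -0.32 at day 5, where Usf2 was the lowest member, and at -0.29 and -0.27 at day 8. Beyond the widest difference between the plasmid libraries over all genes (-0.42 to 0.41) lay 1 member below and 12 above at day 12, against 26.8% and 16.5% of all genes. The days share the same plasmid libraries as their reference, so their values are not independent.

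From day 5 to day 12, a comparison that does not use the plasmid libraries as its reference, 0 of 50 members were at -1 or below and 0 at 1 or above, against 7.02% and 0.832% of all genes. The middle member was at 0.10 and the middle non-targeting guide at 0.17. Hes6 (0.55), Lyl1 (0.44) and Tcf15 (0.37) were the highest members and Tal1 (-0.26), Myog (-0.18) and Neurod4 (-0.16) the lowest. The 3 E proteins were all above 0, at 0.20 for Tcf12, 0.24 for Tcf3 and 0.11 for Tcf4, each within the spread of its guides. Tcf3 had a lower median at day 12 than at day 5 against plasmid and yet a positive median here, because a median of ratios is taken over guides separately in each comparison.

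Guides of members held more G and C than those of other genes, 11.8 bases of 20 against 10.8, and non-targeting guides held 11.1. Across non-targeting guides the change from the plasmid pool to day 12 was higher by 0.125 per G or C base. From day 5 to day 12 that slope was -0.0014 per base. With the slope of the non-targeting guides removed, the middle member stood at 0.087 at day 12 and the middle gene of the library at -0.022, against 0.23 and 0.009 without the correction. Medians above 0 were left for 32 of 50 members and 47.8% of all genes, against 43 members and 50.8% of all genes before. In the trend of summed reads 17 members rose and 2, Hes7 and Lyl1, fell after the correction, against 25.4% and 22.9% of all genes, and all 17 were among the 33. Within broad classes of GC the members also lay between the other sets, though mean GC may still differ between sets inside a class. Guides with 14 or more G and C bases had a median of 0.56 for members (83 guides), 0.36 for other genes and 0.80 for non-targeting guides. Guides with 9 or fewer had -0.23 for members (58 guides), -0.54 for other genes and 0.15 for non-targeting guides. Across the 50 members the correlation of mean GC with the day 12 median was 0.216 (Pearson) and 0.231 (Spearman), and across all 1682 genes 0.308 and 0.402, where genes share the libraries and are not independent.

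**Figure D4:**
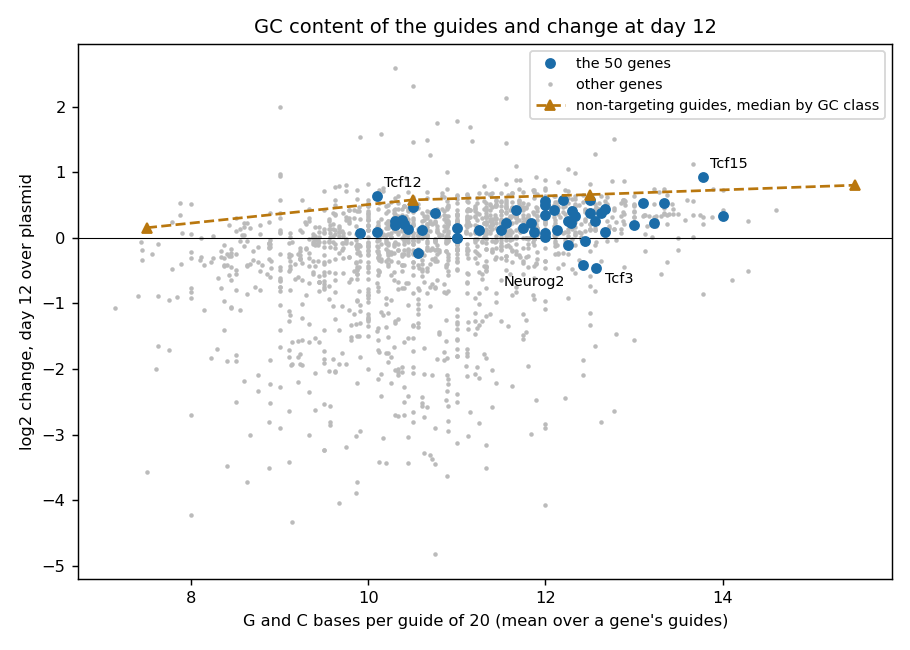
Mean number of G and C bases per guide of a gene (x axis) against its median log2 change from the plasmid pool to day 12 (y axis) for the 50 genes and all other genes, with the median of non-targeting guides in 4 classes of GC. In 35 of the 50 genes the mean GC is at or above the 11.1 bases of the non-targeting guides, Tcf15 and Tcf12 lie above the dashed line, and none of the 50 is at -1 or below.

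Overlapping guides show how far 2 guides to nearly the same site can part. Within members 141 pairs of guides share 10 or more bases of target on either strand, and their day 12 values differed by a median of 0.65 on the log2 scale (quartiles 0.28 and 1.04). The 1529 other pairs within a gene differed by 0.62 (quartiles 0.29 and 1.07). A pair in Neurod1 is the most distant of these, with 17 shared bases and values of -1.66 for guide 4 and 0.86 for guide 5.
Neurod1 guide 4: gctgcgctgtAGGCGTGTGG
Neurod1 guide 5: agagctgcgcTGTAGGCGTG
Guide 4 had 188 and 71 reads in the plasmid libraries and 25, 26 and 15 at days 5, 8 and 12, while guide 5 had 538 and 242 and then 291, 350 and 280. Both passed the trend test of single guides in opposite directions (edgeR quasi-likelihood adjusted p = 0.00127 and 0.00319). Overlapping guides share a target and are not independent measures of a gene.

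A pair of lists outside the name rule give the neighbourhood of these genes. Of 35 other bHLH genes, among them genes of the MYC, MITF, SREBP, HIF and clock families, the middle value at day 12 was 0.093, 3 were at -1 or below and 0 at 1 or above, against 15.8% and 1.19% of all genes. The 3 were Max, the obligate partner of MYC, at -4.04, Srebf2, a regulator of cholesterol synthesis, at -1.75, and Mlxip at -1.31. In the trend of summed reads 5 of these 35 fell and 16 rose, against 25.2% and 34.7% of all genes. Of 15 Notch and BMP inputs and Groucho corepressors, which act upstream of or together with HES and ID proteins, none was past 2-fold. In the trend 1 of these 15 fell (Smad4, -0.028 per day, edgeR quasi-likelihood adjusted p = 0.0392) and 8 rose, against 25.2% and 34.7% of all genes. Rbpj, the DNA-binding effector of Notch, was at -0.05 and Smad5 was the lowest of this list at -0.76. Like the list of 15, the 50 members had no gene past 2-fold down at day 12, while the list of 35 had 3. No test of that difference was made.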

How the data were processed

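Guide reads were counted in 5 libraries of a CRISPR screen. Each deposited file holds whole, unnormalized counts of reads for every guide. Cutadapt, Bowtie, featureCounts and mm10 stand, with no version, in the submitters' processing notes, and the counting settings are not stated there.

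Guides with at least 30 reads in both plasmid libraries were kept (14443 to genes and 893 non-targeting). Scaling and the trend test (plasmid as day 0, quasi-likelihood, Benjamini-Hochberg over all kept guides or all genes) used edgeR 4.0.16 in R 4.3.3; DESeq2 1.42.0 was an alternative. The pseudocount was 1 and the fold threshold 1 on the log2 scale. Days were compared with the plasmid pool, and day 12 with day 5, without a test. Symbols, positions and chromosomes came from RefSeq on GRCm38.p6. Guide cut sites were not analysed here.

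Members and lists were chosen with earlier results of these data known. Named genes were Neurog2, members past 2-fold or called in the trend per gene, the extremes of each role group, and all E protein, ID and USF genes. The remaining 8 members were named after their values were seen, to fill out the role groups. The values of 1 member are not reported here singly, though it is in all counts and medians. Sequences are printed for 6 members rather than for every member called in the trend.

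Alternatives changed the read filter, pseudocount, size factors, zero point, GC slope, mean for median, test and plasmid library.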

Additional observations from a re-analysis of the deposited data

How the results depend on the processing

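No member passed 2-fold at days 5, 8 or 12 over plasmid under the alternatives run on medians, nor for day 12 over day 5 under those that do not leave out a plasmid library, other than Tcf3 at day 12 when values were centred on non-targeting guides, which gave 1 member at -1 or below. That centring moved the middle member to -0.25, -0.31 and -0.35 at days 5, 8 and 12 and to -0.0699 for day 12 over day 5. Together with the GC correction, an alternative chosen after seeing the data, it gave -0.28, -0.40, -0.42 and -0.065. Over the other alternatives the middle member at day 12 stayed between 0.087 and 0.32. With at least 100 plasmid reads Neurog3 kept 2 guides with a day 12 median of -0.06, Tcf3 kept 1 guide at 0.83, and 1 member kept none. In the trend, TMM factors from non-targeting guides gave 111 member guides down and 15 up (45.9% and 2.76% of all guides to genes), and 19 member genes down and 0 up (64.4% and 1.13% of all genes). The GC correction gave 34 guides down and 72 up (22.7% and 13.9% of all), and 2 genes down and 17 up (22.9% and 25.4%). With at least 100 plasmid reads 127 member guides were left, of which 12 fell and 39 rose (26.7% and 20.0% of all), and 2 genes fell, Hey2 and Lyl1, while 23 rose, Tcf3 among them (26.2% and 23.8%). Without plasmid replicate 1 or 2, 12 and 17 guides fell (15.1% and 16.8% of all) and 55 and 64 rose (8.29% and 8.99%). No member gene fell (19.4% and 21.2%) and 26 rose each time (24.0% each), all among the 33.

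Slopes per day of summed reads turned sign in 42 of 50 members on the scale of non-targeting guides, against 51.7% of all genes. They turned in 7 of 49 with at least 100 plasmid reads (14.6% of all genes) and in 7 after the GC correction (10.7%). Without a read filter 1 turned (2.73%), and without plasmid replicate 1 and 2 it was 4 and 3 (4.93% and 3.21%). The cause was not tested. Values are given for the genes named for their role group that turned. On the scale of non-targeting guides they were -0.00900 for Bhlhe41, -0.0544 for Hes7, -0.0296 for Hesx1, -0.0487 for Id1, -0.0141 for Id3, -0.0208 for Id4, -0.00879 for Msc, -0.0057 for Neurog3, -0.0469 for Tal2, -0.00302 for Tcf12, -0.0346 for Tcf3, -0.0151 for Tcf4 and -0.0492 for Usf2. With at least 100 plasmid reads they were -0.00941 for Hes7, -0.00276 for Id1, 0.00328 for Neurog2 and -0.0439 for Tal2. After the GC correction they were -0.0200 for Hes7, -0.00505 for Id1 and -0.00316 for Usf2. Without a read filter Neurog2 was at 0.0077. Leaving out plasmid replicate 1 or 2 gave -0.00515 and 0.00381 for Hes7, 0.00369 and -0.00435 for Id2, 0.0209 and -0.00187 for Tal2, -0.00269 and 0.0024 for Usf1. No paired analysis was possible because the days carry no replicate numbers. A median of 62 reads per member guide at day 12 limits single guides, and 1 library per day leaves culture-to-culture spread unmeasured.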
